A study of Rattus norvegicus with 8 samples.

Results

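The IL-1 family genes described here are the ligands Il1a, Il1b and Il18, the receptor antagonist Il1rn, and the receptors Il1r1, Il1rap and Il1r2. They were taken by symbol from the array's annotation: each probe set assigned to 1 gene, that gene being one of these 7, was used. This gave 11 of the 31042 probe sets on the array and 7 of the 14217 genes with a probe set of their own. Il1a and Il1rap had 2 probe sets each, Il1r1 had 3 and the other genes had 1. Where a gene had several, the one with the highest mean over the 8 arrays stands for the gene in counts, and the others are given beside it.

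Transcript levels were read in reporter PBMCs, peripheral blood mononuclear cells cultured with plasma so that factors in the plasma could act on their transcription. The cells came from 2 healthy adult male Brown Norway rats of about 180 days, BN1 and BN2, and 500000 cells were held for 6 h in medium with 20% plasma. The 5% IH plasma was pooled from 5 adult male Sprague-Dawley rats that had been exposed to intermittent hypoxia (IH) at 5% O2 for 1 h daily on postnatal days 2 to 6. The 10% IH plasma was pooled from 3 such rats exposed at 10% O2 on the same days. The normoxic control plasma was pooled from 8 Sprague-Dawley rats kept at 21% O2, and all 3 pools were drawn from adults at PD114 (postnatal day). Autologous plasma came from the Brown Norway rats themselves, so it differed from the control pool in strain, age and housing as well as in being the cells' own. Each plasma was put on the cells of both donors, 1 array per culture and 2 arrays per plasma. The arrays of a group therefore differ in the cell donor and share 1 plasma pool, and every error given here is the spread between 2 donors' cells. It does not hold the spread between plasma rats. The labels of the autologous cultures conflict: the titles name BN1 and BN2, but the plasma of both arrays is recorded as BN1's and the source names of both mention BN2 plasma.

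IL-1α and IL-1β, encoded by Il1a and Il1b, bind the receptor IL-1R1 (Il1r1), which then recruits the accessory protein IL-1RAP (Il1rap) and signals through MyD88 to NF-κB. The antagonist IL-1Ra (Il1rn) binds the same receptor without recruiting the accessory protein, and IL-1R2 (Il1r2) is a decoy that binds ligand but lacks a signalling domain. IL-1β and IL-18 are made as precursors that caspase-1 cuts in inflammasomes, and in blood monocytes are a main source of IL-1β.

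The ligand genes were higher with adult 5% IH plasma than with normoxic control plasma. Il1a was 2.33-fold higher, Il1b 1.97-fold and Il18 1.24-fold, and the accessory receptor Il1rap was 1.27-fold higher. With 10% IH plasma Il1b was 1.24-fold higher and the antagonist Il1rn 1.27-fold higher. Il1a and Il1b were also higher with 5% IH than with 10% IH plasma, 2.24-fold and 1.59-fold. Every Sprague-Dawley plasma, the normoxic control included, gave far more Il1b than autologous plasma did, 27.6-fold with 5% IH, 17.4-fold with 10% IH and 14.0-fold with control plasma. Il1r1 met the criterion in none of the 6 comparisons.

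The criterion was that of the study: a Rank Product (RP) P-value under 0.05, from the ranks of a probe set in the 4 ratios between arrays, together with a change of group means over 1.2-fold. "Higher", "rose" and "lower" without further words mean that this criterion was met. By it 4 of 7 members were higher and 0 lower in 5% IH against control, where 2.5% of all genes met it and 1.46% were higher. In 10% IH against control 2 of 7 were higher and 0 lower, where 4.3% of all genes met it and 2.04% were higher. In 5% IH against 10% IH 2 of 7 were higher and 0 lower, where 4.48% met it and 2.63% were higher. These 3 comparisons share arrays in pairs and are not independent. The median log2 ratio of the 7 members was 0.31, 0.06 and 0.21 in the 3 comparisons, in that order, against -0.000905, -0.00117 and -0.000815 over all genes. The groups were apart, with every 5% IH array above both control arrays, for 5 of 7 members and 13.2% of all genes. With 10% IH above control they were apart for 3 of 7 and 16.6%, and with 5% IH above 10% IH for 4 of 7 and 17.3%.

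The criterion adjusts for no multiple testing. In limma, fitted over all 31042 probe sets and the 4 plasma groups with Benjamini-Hochberg adjustment, 0 members and 0 genes of the array passed an adjusted p of 0.05 in any comparison among the 3 Sprague-Dawley plasmas. At an unadjusted limma p under 0.05, 4 of 7 members passed in 5% IH against control, where 1.94% of genes did. In 10% IH against control 1 of 7 passed and 4.12% of genes did, and in 5% IH against 10% IH 3 of 7 passed and 4.05% of genes did. With 2 arrays against 2 the smallest p an exact permutation test of 1 gene can give is 0.333, so none was run.

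The deposited values are normalized to make the distributions of arrays equal, so medians between 5.53 and 5.56 on the log2 scale follow from the processing. Correlations between arrays were 0.990 to 0.998 over all probe sets. T cell markers had a mean log2 level of 8.31 to 8.54 over the 8 arrays. Those of monocytes were at 6.63 to 6.88 with the 3 Sprague-Dawley plasmas and at 4.98 to 5.25 with autologous plasma. Platelet and erythroid marker genes were also read, at 9.28 to 9.58 and at 10.20 to 10.38. The samples are bulk cultures, in which fewer cells of a type and less RNA per cell cannot be told apart.

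**Figure D1:**
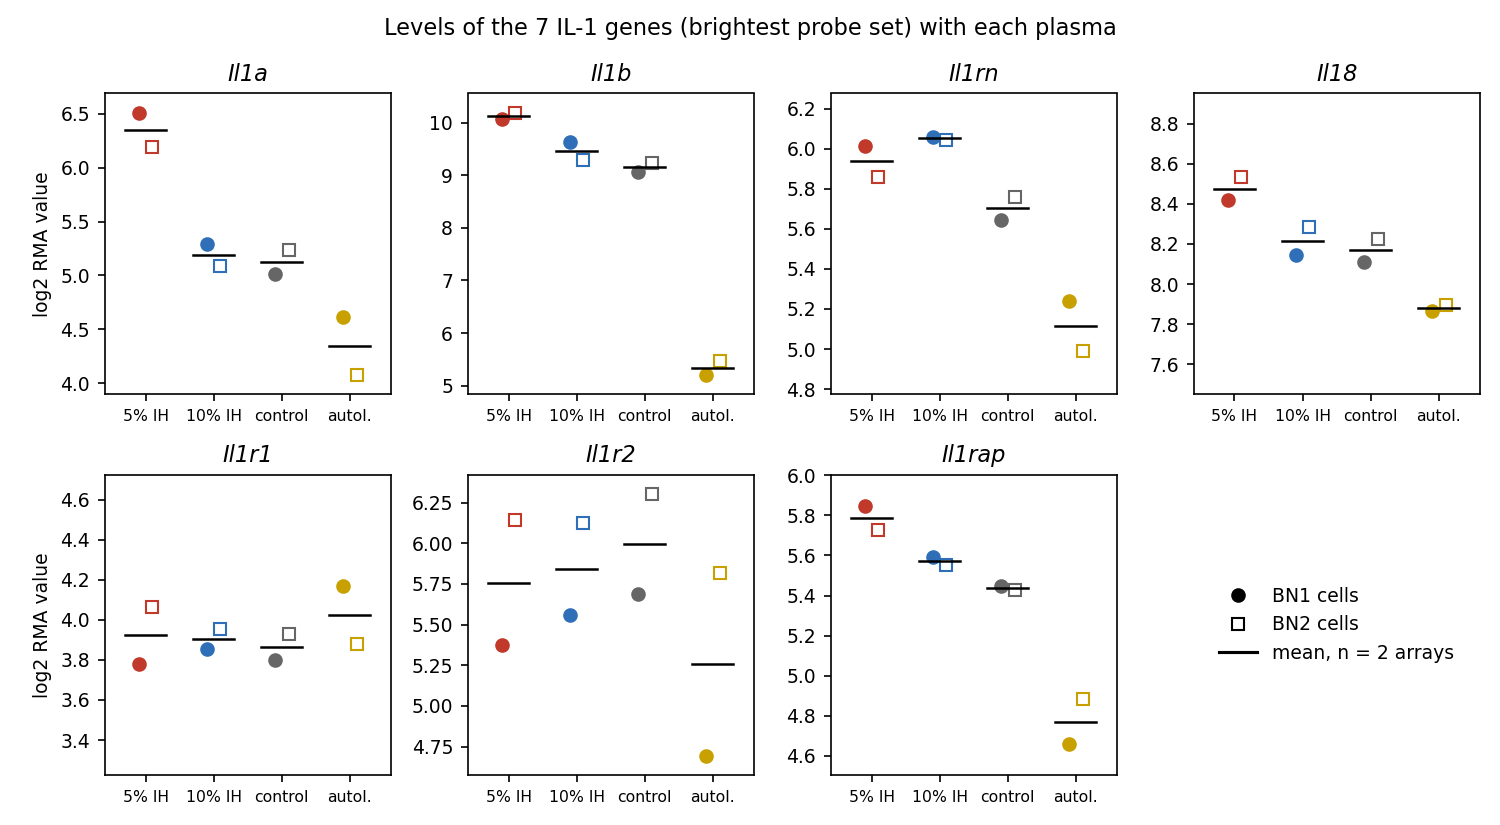
Log2 RMA value (vertical axis, its range set for each gene) of the brightest probe set of the 7 genes with each plasma, where filled circles are BN1 cells, open squares BN2 cells and bars the mean of 2 arrays ("autol.", autologous). Il1b falls into 4 separate steps with autologous plasma lowest, Il1a stands apart with 5% IH plasma, and Il1r2 separates by cell donor.

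Il1a encodes IL-1α, a ligand that is active as a precursor and is released from damaged or activated cells. On its brightest probe set (1368592_at) it read 6.51 in BN1 and 6.20 in BN2 cells with 5% IH plasma, 5.29 and 5.09 with 10% IH, 5.02 and 5.24 with control, and 4.61 and 4.08 with autologous plasma (log2 values, BN1 first here and below). The 5% IH arrays lay above all others, the 10% IH and control arrays overlapped, and the autologous arrays were lowest. The log2 ratio of 5% IH to control was 1.22 (SE 0.182 from limma, adjusted p = 0.545), from 1.49 in BN1 and 0.95 in BN2 cells. That of 5% IH to 10% IH was 1.16 (1.22 in BN1 and 1.10 in BN2, adjusted p = 0.981), while that of 10% IH to control was 0.06 and ran in opposite directions in the cells of BN1 (0.27) and BN2 (-0.15).

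The other Il1a probe set (1371170_a_at) gave a different order of the plasmas. It read 4.48 and 4.12 with 5% IH plasma, 3.97 and 3.66 with 10% IH, 3.21 and 3.23 with control, and 3.40 and 3.27 with autologous plasma. By it both IH plasmas lay above both other groups, and the control arrays were the lowest. This probe set was dim, at the 20.5 percentile of mean level on the array, which limits what it can show. Its log2 ratio to control was 1.08 for 5% IH (SE 0.141, adjusted p = 0.545) and 0.59 for 10% IH (0.75 in BN1 and 0.43 in BN2, adjusted p = 0.920), and both met the criterion. So the rise of Il1a with 5% IH plasma was read by both probe sets, the one with 10% IH plasma by the dimmer alone. Against autologous plasma the control plasma was at 0.78 on the brightest probe set (0.41 in BN1 and 1.16 in BN2) and at -0.11 on the other, which did not meet the criterion.

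**Figure D2:**
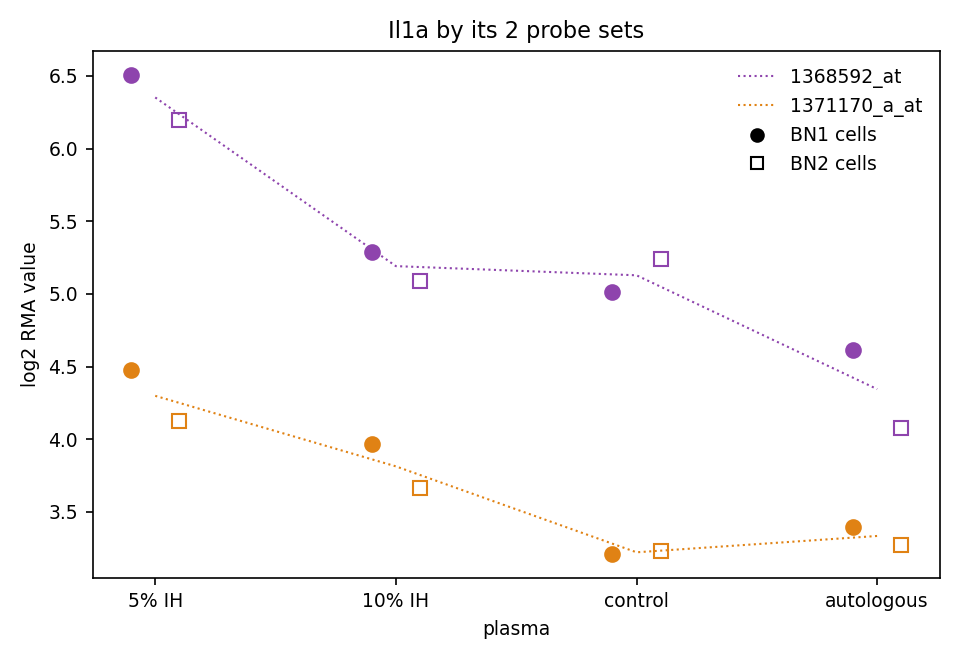
Log2 RMA values of the 2 Il1a probe sets (vertical axis) by plasma (horizontal axis), with filled circles for BN1 and open squares for BN2 cells, and dotted lines joining the group means of each probe set. Levels of different probe sets cannot be set against each other, and the reading is within a colour: both are highest with 5% IH plasma, and they differ in where 10% IH and autologous plasma lie relative to control.

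Il1b encodes IL-1β, the secreted ligand of activated monocytes. It read 10.08 and 10.18 with 5% IH plasma, 9.63 and 9.28 with 10% IH, 9.06 and 9.23 with control, and 5.21 and 5.47 with autologous plasma. No 2 plasma groups overlapped, and the gap below control plasma was the widest. For 5% IH to control the log2 ratio was 0.98 (SE 0.139, adjusted p = 0.545), close in the cells of BN1 (1.01) and BN2 (0.95). For 10% IH to control it was 0.31 (adjusted p = 0.920) and came mostly from BN1 cells (0.57), with 0.05 in BN2 cells. Without the BN1 array of 10% IH it was 0.14, and without the BN1 array of control 0.23, and both values missed the criterion. Between 5% IH and 10% IH the log2 ratio was 0.67, from 0.44 in BN1 and 0.90 in BN2 cells.

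Il18 encodes the ligand IL-18, which acts through a receptor pair of its own. It read 8.42 and 8.53 with 5% IH plasma, 8.14 and 8.28 with 10% IH, 8.11 and 8.22 with control, and 7.87 and 7.90 with autologous plasma. The range was narrow, with the 5% IH arrays highest, the autologous arrays lowest, and the 10% IH and control arrays overlapping. Relative to control, 5% IH gave a log2 ratio of 0.31 in the cells of both BN1 and BN2 (SE 0.0956, adjusted p = 1.00). It fell short of 1.2-fold when the BN2 array of 5% IH (0.25) or the BN1 array of control (0.25) was left out. The ratio of 5% IH to 10% IH, 0.26, lay just under 1.2-fold.

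Il1rn encodes the secreted antagonist. It read 6.01 and 5.86 with 5% IH plasma, 6.06 and 6.04 with 10% IH, 5.65 and 5.76 with control, and 5.24 and 4.99 with autologous plasma. It was the one member with its highest arrays under 10% IH plasma, and the 4 plasma groups did not overlap. The log2 ratio of 10% IH to control was 0.35 (0.41 in BN1 and 0.29 in BN2, SE 0.110, adjusted p = 0.920). That of 5% IH to control was 0.23 (0.37 in BN1 and 0.10 in BN2) and missed the fold threshold, although it met the criterion at 0.31 without the BN2 array of 5% IH and at 0.29 without the BN2 array of control. Between 5% IH and 10% IH it was -0.12, negative in the cells of both BN1 and BN2, and it did not meet the criterion.

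Il1rap encodes the accessory chain that IL-1R1 needs to signal. Its brightest probe set (1393563_at) read 5.85 and 5.73 with 5% IH plasma, 5.59 and 5.55 with 10% IH, 5.45 and 5.43 with control, and 4.66 and 4.88 with autologous plasma. The groups were again in 4 separate steps, in the same order as for Il1b. The log2 ratio of 5% IH to control was 0.35 (0.40 in BN1 and 0.30 in BN2, SE 0.102, adjusted p = 1.00) and that of 10% IH was 0.14, which did not meet the criterion. The other probe set (1387507_at) read 5.07 and 4.92 with 5% IH plasma, 4.88 and 4.91 with 10% IH, 4.96 and 4.96 with control, and 4.64 and 4.64 with autologous plasma. On it the ratio of 5% IH to control was 0.04, so the rise with 5% IH plasma rests on 1 of 2 probe sets, and the mean of both was 0.19.

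Il1r1 encodes the signalling receptor for both IL-1 ligands. Its brightest probe set (1392946_at) read 3.78 and 4.07 with 5% IH plasma, 3.86 and 3.95 with 10% IH, 3.80 and 3.93 with control, and 4.17 and 3.88 with autologous plasma. All groups that neighbour each other in level overlapped on all 3 probe sets. The log2 ratio to control was 0.06 for 5% IH (SE 0.133) and 0.04 for 10% IH, and over the 3 probe sets these ratios lay between -0.08 and 0.07. The probe sets were dim, at the 6.63 to 24.8 percentiles of mean level on the array, which limits what they can show.

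Il1r2 encodes the decoy receptor. It read 5.37 and 6.14 with 5% IH plasma, 5.56 and 6.12 with 10% IH, 5.69 and 6.30 with control, and 4.70 and 5.82 with autologous plasma. BN2 cells lay above BN1 cells with every plasma, and all neighbouring groups overlapped. The log2 ratio to control was -0.24 for 5% IH and -0.15 for 10% IH, negative in the cells of both donors, and neither met the criterion. For 5% IH the RP P-value was 0.0038, and the fold threshold alone was missed. The SE of that ratio was 0.389, which holds the difference between donors, and 0.140 with donor added to limma as a block. The difference between BN2 and BN1 cells was 0.77 with 5% IH, 0.56 with 10% IH and 0.62 with control plasma. It was 1.12 with autologous plasma, where the plasma may differ too, and averaged 0.77 over the 4 plasmas. In limma with donor and plasma as terms its p was 8.4e-05 and its adjusted p 0.326. No gene passed an adjusted p of 0.05 for donor, and 6.3% of genes were higher in BN2 cells with all 4 plasmas. This donor comparison was made after the values were seen.

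**Figure D3:**
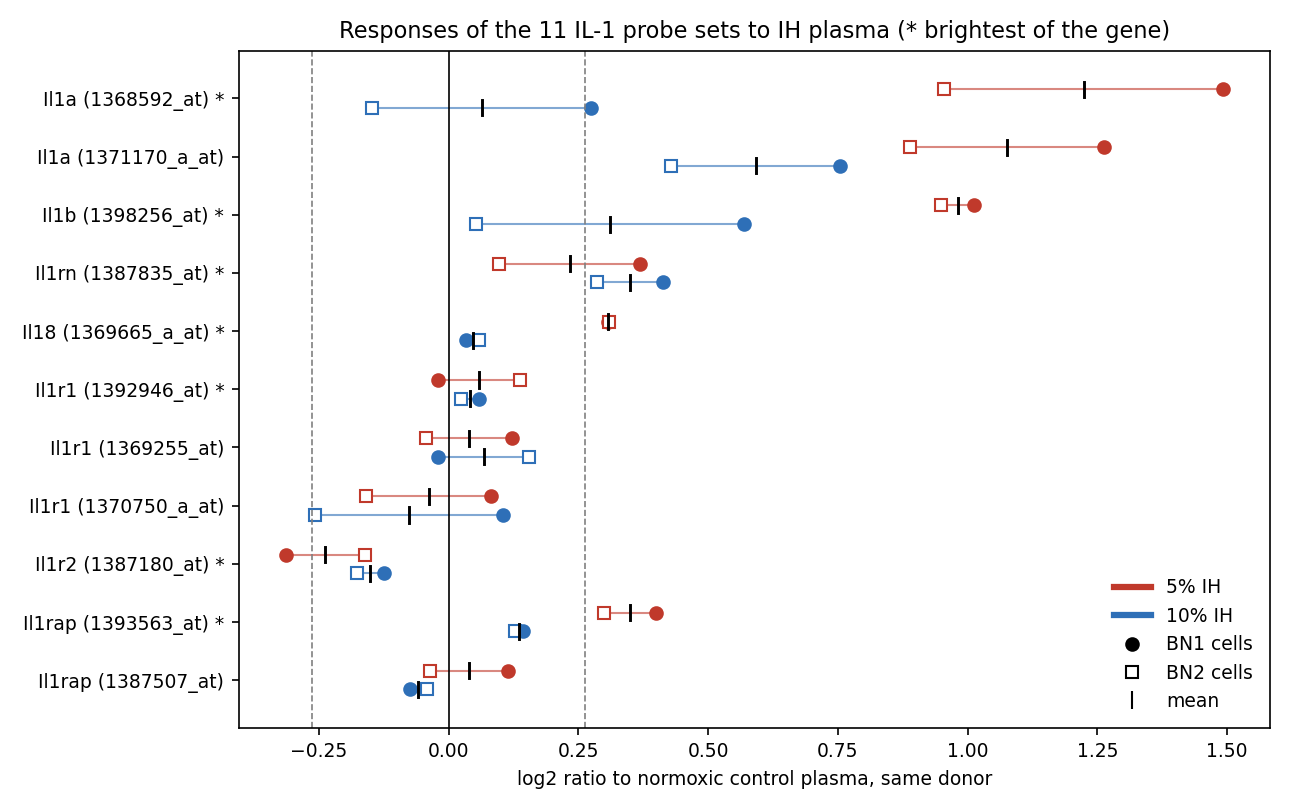
Log2 ratio to normoxic control plasma in the cells of the same donor (horizontal axis) for the 11 IL-1 probe sets, 5% IH in red above 10% IH in blue, with filled circles for BN1, open squares for BN2, a black tick for the mean and dashed lines at 1.2-fold on either side of 0. The 5% IH ratios of Il1a lie between 0.89 and 1.49 on its 2 probe sets and those of Il1b at 0.95 and 1.01, and the Il1r1 and Il1r2 ratios lie between -0.31 and 0.16.

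The promoters of 5 members are shown here because their transcripts met the criterion with an IH plasma against control: Il1a, Il1b, Il18 and Il1rap, highest with 5% IH, and Il1rn, highest with 10% IH. The windows are from RefSeq on build GRCr8, 250 bases before to 50 bases after the annotated start, 5′ to 3′ on the gene's strand. They lie at chr3:136989968-136990267 (minus strand) for Il1a, chr3:137036532-137036831 (minus) for Il1b, chr8:59801822-59802121 (plus) for Il18, chr3:27520072-27520371 (plus) for Il1rn and chr11:87704212-87704511 (minus) for Il1rap. Capitals mark matches on either strand to any of 6 motifs. The TATA box was searched as TATAAA and the NF-κB motif by its consensus. C/EBP sites were searched as TTNNGNAA, and AP-1 sites as TGANTCA, where N is any base. The cyclic AMP response element (CRE) was searched as TGACGTCA, and the myeloid factor PU.1 as the core letters GAGGAA.
Il1a: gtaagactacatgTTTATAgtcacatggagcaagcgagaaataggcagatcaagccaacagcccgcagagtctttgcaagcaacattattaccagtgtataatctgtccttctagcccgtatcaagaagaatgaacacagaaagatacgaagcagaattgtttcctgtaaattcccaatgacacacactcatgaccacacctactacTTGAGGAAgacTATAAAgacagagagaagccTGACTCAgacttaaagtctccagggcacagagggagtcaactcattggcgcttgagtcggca
Il1b: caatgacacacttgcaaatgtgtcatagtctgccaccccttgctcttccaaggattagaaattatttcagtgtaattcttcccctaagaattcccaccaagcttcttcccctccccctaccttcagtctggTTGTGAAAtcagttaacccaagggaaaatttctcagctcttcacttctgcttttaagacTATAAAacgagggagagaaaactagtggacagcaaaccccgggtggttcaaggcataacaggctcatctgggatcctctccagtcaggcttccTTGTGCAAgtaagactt
Il18: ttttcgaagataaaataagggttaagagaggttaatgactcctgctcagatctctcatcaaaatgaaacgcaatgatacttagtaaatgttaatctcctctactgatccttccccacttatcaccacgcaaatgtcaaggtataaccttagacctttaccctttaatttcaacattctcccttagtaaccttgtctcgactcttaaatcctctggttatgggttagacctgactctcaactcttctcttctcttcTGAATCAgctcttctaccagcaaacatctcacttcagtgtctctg
Il1rn: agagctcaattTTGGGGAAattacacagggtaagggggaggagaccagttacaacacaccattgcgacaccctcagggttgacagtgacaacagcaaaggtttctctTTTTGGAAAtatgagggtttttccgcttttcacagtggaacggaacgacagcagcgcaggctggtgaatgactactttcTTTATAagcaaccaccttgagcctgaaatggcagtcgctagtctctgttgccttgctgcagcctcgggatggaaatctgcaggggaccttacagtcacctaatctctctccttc
Il1rap: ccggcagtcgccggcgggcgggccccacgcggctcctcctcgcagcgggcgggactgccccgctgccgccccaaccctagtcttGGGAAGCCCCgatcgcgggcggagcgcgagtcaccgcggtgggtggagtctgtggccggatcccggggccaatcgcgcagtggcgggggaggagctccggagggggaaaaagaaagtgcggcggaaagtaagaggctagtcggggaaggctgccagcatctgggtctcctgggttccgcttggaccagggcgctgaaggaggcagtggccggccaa

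The Il1a window held TATAAA with its first base 32 bases before the start and TTTATA, its reverse complement, 237 bases before. It also held an AP-1 match, TGACTCA, 12 bases before the start, and a C/EBP match, TTGAGGAA, 43 bases before, within which the PU.1 letters lie. The Il1b window held TATAAA 60 bases before the start and C/EBP matches 119 bases before and 34 bases after it. The Il18 window held 1 match, to AP-1, TGAATCA, 6 bases after the start. The Il1rn window held a TATA match on the other strand and 3 C/EBP matches, 2 of them overlapping. The Il1rap window, one of 2 annotated for the gene, held no TATA match and 1 NF-κB consensus match. Il1r1, whose window is not shown, held an NF-κB consensus match. Such letters are common: TATAAA was in 14.2% of the 33469 windows that RefSeq gave, the NF-κB consensus in 7.51%, the C/EBP letters in 41.3%, AP-1 in 7.33%, CRE in 1.83% and PU.1 in 27.6%. A match is a description of the sequence and not a bound site, and the absence of one says nothing about the factor. Windows matched 6 of the 7 members, Il1r2 not among them.

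Autologous plasma was the study's background control, although its gene calls compared the IH plasmas with normoxic control plasma. The paper describes its listed fold changes as relative to autologous plasma. Its values for Il1a and Il1b with 5% IH lie near those found here against control, 2.33-fold and 1.97-fold. Against autologous plasma these genes were 4.02-fold and 27.6-fold higher here. Here all 3 Sprague-Dawley plasmas were also compared with autologous plasma, so these comparisons share its 2 arrays. In each, 6 of 7 members were higher and 0 lower. Of all genes 10.1% met the criterion in control against autologous plasma (6.16% higher), 10.4% in 5% IH (6.24% higher) and 9.01% in 10% IH (5.39% higher). In limma 5 of 7 members passed an adjusted p of 0.05 in 5% IH against autologous, where 2.75% of genes did. In 10% IH against autologous 3 of 7 passed and 1.81% of genes did, and in control against autologous 3 of 7 passed and 2.44% of genes did. The median log2 ratio of the 7 members was 0.82 for 5% IH, 0.80 for 10% IH and 0.67 for control, against -0.0111, -0.00592 and -0.00746 over all genes.

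The log2 ratio of Il1b to autologous plasma was 4.79 with 5% IH (adjusted p = 1.74e-06), 4.12 with 10% IH (3.35e-06) and 3.81 with control (4.29e-06). That of Il1rn was 0.82, 0.94 and 0.59 with the same plasmas (adjusted p = 0.00473, 0.00267 and 0.0341), and that of Il1rap was 1.02, 0.80 and 0.67 (0.000755, 0.00432 and 0.0116). These 3 genes passed with every Sprague-Dawley plasma, Il1rap on its brightest probe set alone. Il1a passed with 5% IH only, at 2.01 (adjusted p = 0.000406), with 0.85 for 10% IH (0.0843) and 0.78 for control (0.0897). Il18 did likewise, at 0.59 with 5% IH (adjusted p = 0.0134), 0.33 with 10% IH (0.248) and 0.29 with control (0.301). The differences between these pairs are the direct comparisons of the plasmas given above, in which no member passed in limma.

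Il1r2 met the criterion against autologous plasma at 0.50 for 5% IH, 0.59 for 10% IH and 0.74 for control, but not in limma (adjusted p = 0.771, 0.704 and 0.610), and the groups overlapped. The BN1 autologous array was the lowest of all 8 for this gene. Without it the ratios were -0.06, 0.03 and 0.18, but these set the cells of both donors against BN2 cells alone. Within a donor the ratios to autologous plasma were positive throughout, at 0.68 in BN1 and 0.32 in BN2 with 5% IH, 0.87 and 0.31 with 10% IH, and 0.99 and 0.48 with control. With donor as a block in limma, which takes out the constant difference between donors, the ratio of control to autologous plasma kept its value of 0.74. Its SE was then 0.140 and its adjusted p 0.0550. In the same fit the adjusted p was 0.203 for 5% IH and 0.172 for 10% IH against autologous plasma. Il1r1 on its brightest probe set stood at -0.10, -0.12 and -0.16 with 5% IH, 10% IH and control plasma, negative in BN1 and positive in BN2 cells. Its other probe sets, both dimmer, stood at 0.07, 0.10 and 0.03 (1369255_at) and at -0.11, -0.15 and -0.08 (1370750_a_at). On the last, both IH ratios were negative in the cells of both donors. None met the criterion.

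Markers of monocytes, each by its brightest probe set, moved in the same comparisons. In control against autologous plasma 10.1% of all genes met the criterion and 6.16% were higher. Of 10 monocyte markers 8 were higher and 0 lower, with a median log2 ratio of 1.00 and 5.28 for Cd14, the lipopolysaccharide co-receptor. The log2 of their summed linear levels was 11.90 to 12.13 with 5% IH, 11.89 to 11.94 with 10% IH, 11.67 to 11.91 with control and 9.04 to 9.68 with autologous plasma. Neutrophil markers, of which 7 of 10 had a probe set, had a mean log2 level of 4.71 to 4.74 with 5% IH, 4.51 to 4.80 with 10% IH, 4.60 to 4.79 with control and 4.26 to 4.58 with autologous plasma, and 3 of these 7 were higher in control than in autologous plasma. The 8 T cell markers gave 0 calls in that comparison. The part of these markers in the rise of the IL-1 genes over autologous plasma was not tested.

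In 5% IH against control 2.5% of all genes met the criterion and 1.46% were higher. Of 10 monocyte markers 3 were higher and 1 lower, with a median of 0.08. Those higher were Adgre1 (log2 ratio 0.54), Cd14 (0.40) and Itgam (0.28), and Ccr2 was lower (-0.29), while Csf1r (0.06), Cd68 (0.02) and Lyz2 (0.13) did not meet the criterion. In 10% IH against control, where 4.3% of all genes met it, 0 of 10 did, with a median of 0.03 and Cd14 at 0.03. In 5% IH against 10% IH, where 4.48% of all genes met the criterion, Adgre1 (0.55) and Cd14 (0.37) were higher. The part of these markers in the rise of Il1a and Il1b with 5% IH plasma was not tested.

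**Figure D4:**
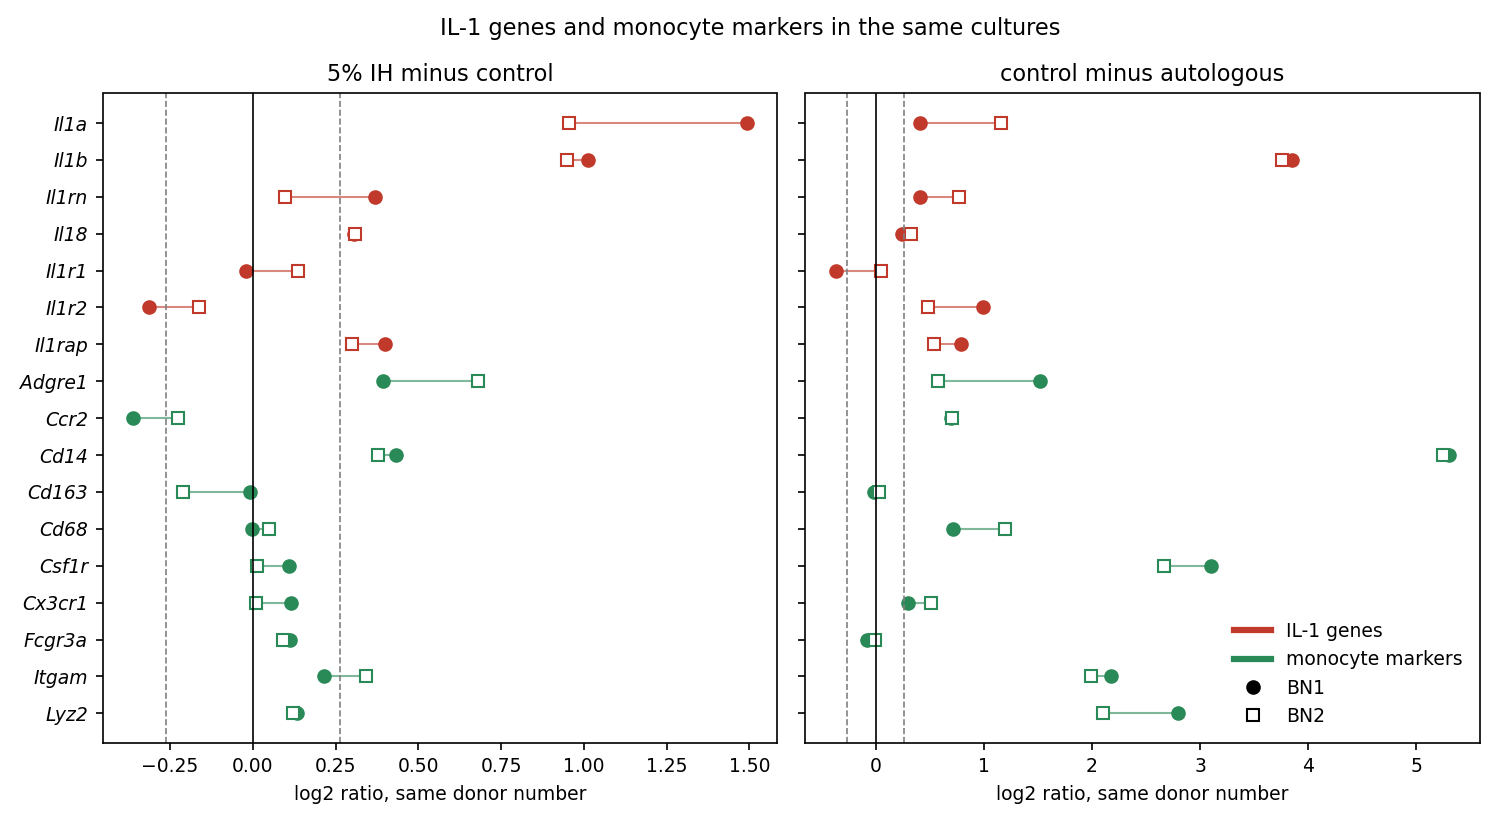
Log2 ratios in the cells of the same donor number (horizontal axes, of different range) for the 7 IL-1 genes in red and the 10 monocyte markers in green, with filled circles for BN1, open squares for BN2 and dashed lines at 1.2-fold on either side of 0. For 5% IH minus control Il1a and Il1b lie further out than any monocyte marker, and for control minus autologous Cd14, Csf1r, Lyz2 and Itgam lie at 1.99 or above in the cells of both donors, as does Il1b among the IL-1 genes.

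The wider IL-1 pathway was followed through 47 measured genes, each counted by its brightest probe set: 7 of 14 listed other family ligands and receptors, 10 of 14 inflammasome and processing genes, 19 of 21 genes of signal transduction and all 11 feedback genes. The inflammasome sensors Nlrp3, Nlrp1a, Nlrc4 and Aim2 and the IL-18 receptor genes Il18r1 and Il18rap were without a probe set of their own. In 5% IH against control 1 of 47 was higher and 0 lower, in 10% IH against control 3 and 0, and in 5% IH against 10% IH 1 and 1. Of all genes 2.5%, 4.3% and 4.48% met the criterion in these comparisons, as given above. The median log2 ratio over the 47 genes was 0.04, 0.02 and 0.01.

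By the brightest probe sets the gene that rose with 5% IH plasma was Nfkbiz, which encodes IκBζ, a nuclear regulator of NF-κB target genes. On that probe set it read 9.93 and 9.94 with 5% IH plasma, 9.64 and 9.66 with 10% IH, 9.64 and 9.67 with control, and 8.74 and 8.89 with autologous plasma. Its log2 ratio was 0.28 against control (adjusted p = 1.00) and 0.29 against 10% IH. The 10% IH and control arrays overlapped, and the 5% IH arrays lay above them in the cells of both BN1 and BN2. The other Nfkbiz probe set did not meet the criterion, at 0.02 against control (0.22 in BN1 and -0.18 in BN2) and -0.00 against 10% IH, so the rise rests on 1 of 2 probe sets. By its brightest probe set no gene of the transduction list met the criterion in the 3 comparisons among Sprague-Dawley plasmas. Casp1, which cuts the IL-1β and IL-18 precursors, did not meet it either, at 0.00 for 5% IH and -0.11 for 10% IH against control.

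With 10% IH plasma 3 other genes of the lists were higher than with control on their brightest probe set. Socs3, a cytokine-induced inhibitor of JAK-STAT signalling, was at a log2 ratio of 0.41 (0.65 in BN1 and 0.17 in BN2). Txnip, a thioredoxin-binding protein linked to the NLRP3 inflammasome, was at 0.31 (0.39 and 0.23). Il18bp, the soluble binding protein that neutralises IL-18, was at 0.27 (0.30 and 0.23). Dimmer probe sets of 5 list genes also met the criterion among the Sprague-Dawley plasmas and are named after their values were seen. Ikbkb, the kinase IKKβ, was at 0.41 in 5% IH against control (0.08 in BN1 and 0.73 in BN2) and at 0.26 against 10% IH, and Tollip, an inhibitor of Irak signalling, was at 0.28 in 5% IH against control (0.63 and -0.07). In 10% IH against control Nek7, an NLRP3 partner, was at 0.30 (0.54 and 0.06), Dusp1, a MAP kinase phosphatase, at 0.27 (0.60 and -0.06) and Tab3, an adaptor of the kinase TAK1, at -0.54 (-1.33 and 0.25). In 5% IH against 10% IH Nek7 was at -0.29 and Tab3 at 0.56 (1.36 and -0.23). For Tollip, Dusp1 and Tab3 the cells of the donors moved in opposite directions. Il36b, a ligand of the IL-36 branch, was at -0.29 in 5% IH against 10% IH, at log2 levels of 2.19 to 2.78 that are near the bottom of the array's range of 1.66 to 14.3.

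Against autologous plasma more of the pathway genes met the criterion. With 5% IH 11 of 47 were higher and 1 lower, with 10% IH 10 and 0, and with control plasma 11 and 1. The share of all genes that met it was larger too than among the Sprague-Dawley plasmas. It was 10.4% with 5% IH (6.24% higher), 9.01% with 10% IH (5.39% higher) and 10.1% with control (6.16% higher). Among the brightest probe sets of the lists that of Nfkbiz had the largest log2 ratio in all 3, at 1.13 with 5% IH, 0.84 with 10% IH and 0.84 with control. Its other probe set, at 0.08, 0.09 and 0.06, did not meet the criterion. The other genes named here were chosen after their values were seen. Casp4, an inflammatory caspase known from mouse and human to sense intracellular lipopolysaccharide, was at 0.69, 0.53 and 0.63 with the same plasmas. Irak3, an inhibitory member of the Irak family, was at 0.52, 0.45 and 0.43. Txnip was lower with 5% IH (-0.47) and control (-0.55) plasma.

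The pattern of the 3 members whose group means spanned over 1 log2 unit was compared with 186 other genes of such a span, each by its brightest probe set, by Pearson's r over the 8 arrays. The arrays share plasma pools and cell donors, and r over all 8 includes the gap between autologous and Sprague-Dawley plasma, so r over the 6 arrays without autologous plasma is given beside it. The gene most like Il1a was Ptgs2, which encodes the inducible cyclooxygenase COX-2, with r = 0.96 over 8 and 0.98 over 6 arrays. Ptgs2 read 5.95 and 5.60 with 5% IH plasma, 4.70 and 4.53 with 10% IH, 4.69 and 4.52 with control, and 3.21 and 2.69 with autologous plasma, so it too was apart with 5% IH plasma and level between 10% IH and control. Next came Ccl3, a chemokine of macrophages (0.89 over 8 and 0.78 over 6), Dnajc22, Dram1 and B3galnt1.

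The genes most like Il1b were Pstpip2, Slc2a6, Fcgr2b, Cxcl2 and Cd14, with r of 0.991 to 0.994 over 8 arrays and 0.79 to 0.89 over 6. Cxcl2, a neutrophil-attracting chemokine, read 8.18 and 8.63 with 5% IH plasma, 7.77 and 8.21 with 10% IH, 7.25 and 7.67 with control, and 3.43 and 3.91 with autologous plasma. Those most like Il1rap were Cdc42ep4, Nfkbiz, Cxcl1, Htr7 and Fas, with r of 0.98 to 0.99 over 8 arrays and 0.81 to 0.93 over 6. Cxcl1, another neutrophil-attracting chemokine, read 6.18 and 6.22 with 5% IH plasma, 5.54 and 5.72 with 10% IH, 4.94 and 4.83 with control, and 3.14 and 3.74 with autologous plasma. Both chemokines followed the order 5% IH, 10% IH, control and autologous seen for Il1b and Il1rap, although for Cxcl2 the 5% IH and 10% IH arrays overlapped.

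Among the members themselves, Il1a and Il1b correlated at r = 0.82 over 8 arrays and 0.93 over the 6 without autologous plasma. Il1b and Il1rap correlated at 0.98 and 0.92, Il1a and Il1rap at 0.85 and 0.93. Il1rn followed the ligands less closely among the Sprague-Dawley plasmas, at 0.45 with Il1b and 0.29 with Il1a over 6 arrays, beside 0.92 and 0.75 over 8. Il1r1 and Il1r2 had r between -0.32 and 0.25 with Il1a and Il1b over the 6 arrays.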

How the data were processed

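Per the labels and the study's methods, RNA of each culture was hybridized to 1 Affymetrix rat expression array, which reads transcripts by probe sets. The authors deposited log2 values normalized by robust multichip analysis (RMA), and the submitters' notes also name Partek. Versions and any filter were not given in the sources used here. RMA makes the distributions of arrays equal, so levels are relative. The table held 31042 probe sets with no missing value. Of these, 20826 had 1 gene symbol, 436 several and 9780 none, and probe sets with several were not used. For arrays, their number limits the precision: 2 per group.

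The 8 arrays were grouped by their labels. The Rank Product of the study's methods was rewritten in R 4.3.3 (all ratios between arrays, 100 permutations of values within arrays, 1-sided P-value under 0.05, fold change over 1.2). Standard errors and adjusted p-values came from limma 3.58.1 over all 8 arrays with p-values adjusted across the whole array by Benjamini-Hochberg. Both were tested on simulated data. Figures were drawn with matplotlib 3.10.9. The methods name no donor term, so the donor was left out of the main design and added as a block in an alternative. Replicate numbers mark the cell donor, BN1 or BN2, per the labels. Deviations of same-numbered arrays from their group means correlated at 0.17 (5% IH and 10% IH), 0.24 (5% IH and control) and 0.06 (10% IH and control), and at -0.08, -0.17 and -0.00 for 5% IH, 10% IH and control with autologous.

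The members and gene lists were chosen with earlier results of these data known, and Il1a and Il1b are among genes the study picked from these arrays, so neither is independent evidence. All members were named. List genes were named where they met the criterion among the Sprague-Dawley plasmas, and pattern likeness named the 5 genes with the highest r. Alternatives were other thresholds, limma settings, rescaling, a filter on dim probe sets, averaging a gene's probe sets, and leaving out each array. Leaving out both autologous arrays was added after the data were seen.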

Additional observations from a re-analysis of the deposited data

How the results depend on the processing

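Counts of members and of pathway genes are given for the comparisons 5% IH with control, 10% IH with control and 5% IH with 10% IH, then control, 5% IH and 10% IH with autologous plasma. By the study's criterion the members called were 4, 2 and 2, then 6, 6 and 6, and the pathway genes 1, 3 and 2, then 12, 12 and 10. Of all genes 2.5%, 4.3% and 4.48%, then 10.1%, 10.4% and 9.01% met it. Every member called was higher in the first-named plasma. In limma the members called at an adjusted p under 0.05 were 0, 0 and 0, then 3, 5 and 3, and the pathway genes 0, 0 and 0, then 2, 3 and 1. Of all genes 0%, 0% and 0%, then 2.44%, 2.75% and 1.81% passed. At a limma p under 0.05 without adjustment the members were 4, 1 and 3, then 5, 5 and 5. In the first 3 comparisons 1.94%, 4.12% and 4.05% of all genes passed it. For the settings that follow, here and in the next paragraph, no share of all genes is given. Their counts show only how the calls moved with the setting, not whether they exceed those of other genes. Fitting limma to the compared groups alone gave 0, 0 and 0 members, then 2, 5 and 3, and 0, 0 and 0 pathway genes, then 1, 1 and 1. With trend and robust options it gave 0, 0 and 0, then 4, 5 and 4 members, and 0, 0 and 0, then 6, 8 and 6 pathway genes. Without the 2 autologous arrays limma called 0 members and 0 pathway genes in the first 3 comparisons, where 2, 1 and 1 probe sets of the array passed, with adjusted p of 0.292 for Il1a and 0.508 for Il1b in 5% IH with control. Requiring an estimated share of false predictions under 0.05 left 2, 0 and 1, then 1, 2 and 1 members and 0 pathway genes in all 6. A 1.5-fold threshold left 2, 0 and 2, then 5, 5 and 5 members and 0, 0 and 0, then 2, 2 and 1 pathway genes. Leaving out dim probe sets left 1 pathway gene in 5% IH with 10% IH, and averaging a gene's probe sets left 0 in 5% IH with control. By that average Il1a in 10% IH with control met the criterion (0.33) and Il1rap in 5% IH with control did not (0.19). Median centring brought Il18 over the threshold in 5% IH with 10% IH (0.27). The counts under repeated quantile normalization and 2-sided P-values stayed within 1.5 times.

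The replicate block, in which arrays are paired by cell donor, gave the same 0, 0 and 0, then 3, 5 and 3 members in limma and 0, 0 and 0, then 2, 3 and 2 pathway genes. By Rank Product on within-donor ratios the block gave 4, 2 and 2, then 6, 6 and 6 members and 1, 3 and 2, then 12, 13 and 10 pathway genes. Leaving out 1 array at a time gave 4 to 5, 1 to 3 and 3 to 3, then 4 to 6, 5 to 6 and 4 to 6 members, and 1 to 4, 3 to 7 and 3 to 4, then 8 to 13, 7 to 12 and 7 to 14 pathway genes. The lowest member count for 10% IH with control came without the BN1 array of 10% IH, and the highest pathway counts for 5% IH and 10% IH with control, 4 and 7, without the BN2 control array. For 5% IH with autologous plasma 7 pathway genes remained called without the BN2 autologous array. The sign of a called value turned once, for Il1r2 in 5% IH with autologous plasma, which stood at -0.0608 without the BN1 autologous array and at 1.06 without the BN2 autologous array. Without 1 array, Il18 in 5% IH with 10% IH met the criterion at 0.32 when BN1 cells with 5% IH were left out and at 0.33 when BN2 cells with 10% IH were, and Il1r2 in 5% IH with control met it at -0.62 when BN2 cells with 5% IH were left out and at -0.55 when BN1 cells with control plasma were. The Il1r2 values without 1 array set the cells of both donors against those of 1 donor, and this gene was higher in BN2 than in BN1 cells with every plasma, so they carry the donor difference by construction. Within a donor its ratios of 5% IH to autologous plasma were 0.68 in BN1 and 0.32 in BN2 cells. The cause of the other changes was not tested, except that a stricter threshold calls fewer genes by construction. With 1 pool per Sprague-Dawley plasma, no alternative can measure the spread between plasma rats. The dim probe sets of Il1r1 limit what can be seen of that receptor.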

Other observations

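Markers of other cell types gave values that belong in no comparison of the IL-1 genes, and the genes named here were chosen after their values were seen. Fcer2, which encodes CD23, an IgE receptor, was 1 of 4 measured B cell markers and differed between the plasmas. Its log2 ratio was -0.61 for 10% IH against control (-0.54 in BN1 and -0.69 in BN2) and 0.71 for 5% IH against 10% IH, by the study's criterion and not at an adjusted p of 0.05 in limma (0.920 and 0.981). The other 3 B cell markers met the criterion in neither comparison, where 4.3% and 4.48% of all genes did. For 10% IH against control the 4 markers had a median log2 ratio of -0.09 and a highest of 0.10. Against autologous plasma Fcer2 was at 1.35 with 5% IH, 0.65 with 10% IH and 1.26 with control. Alas2, the erythroid enzyme of heme synthesis, was at 0.31 for 10% IH against control, with 0.58 in BN1 and 0.03 in BN2 cells. Gzmb, the granzyme of cytotoxic cells, met the criterion against autologous plasma at -0.33 with 5% IH, -0.37 with 10% IH and -0.33 with control. It was the 1 NK cell marker of 6 that did, where 10.4%, 9.01% and 10.1% of all genes met it. The 6 markers had median log2 ratios of -0.12, -0.12 and -0.09 with these plasmas, and the highest were 0.11, 0.23 and 0.02.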
